A study of Homo sapiens with 6 samples.

Results

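The 9 genes described here encode the linker histone H1FX and replication-independent variants of the core histones H2A and H3, namely H3F3A, H3F3B, H2AFZ, H2AFV, H2AFX, H2AFJ, H2AFY and H2AFY2. They belong to a set of 10 that was chosen by gene symbol from the 19868 entries of a gene count table, with their values in these libraries already known, so their fold changes are given as a description and carry no test. The table holds 3 CAMKV-KD libraries and 3 Control libraries made from NGP (a cell line established from a neuroblastoma), which the sample descriptions name sh-CAMKV and sh-control (sh usually stands for short hairpin RNA). CAMKV resembles the calmodulin-dependent kinases but is held to lack kinase activity, and the series asks which transcripts change when it is depleted. Cells of both groups were grown in RPMI-1640 with 20% fetal bovine serum and antibiotics. The labels give neither the number of hairpins, nor the time after their delivery, nor say whether replicates were separate cultures or 1 clone. The errors and p-values given here thus cover the variation among these 6 libraries alone, and that variation may be technical; other effects of a hairpin cannot be told apart from loss of CAMKV.

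Nucleosomes wrap DNA around core histones, and a linker histone binds where the DNA enters and leaves. Most histone genes lie in clusters, are transcribed in S phase and give mRNAs that end in a stem-loop instead of a poly(A) tail. The genes described here lie outside the clusters, are expressed through the cell cycle and give polyadenylated mRNAs (H2AFX gives both forms). Linker histone variants differ in how tightly they compact chromatin, and their balance shifts as cells differentiate. In bulk RNA, fewer cells of a type and less RNA per cell cannot be told apart.

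Linker histones have a lysine-rich tail that binds DNA, and the coding sequence of H1FX shows it. The last 30 codons before the stop are printed from its GENCODE 29 transcript with the lysine codons (AAA and AAG) in capitals, and 11 of these codons are lysine.
H1FX: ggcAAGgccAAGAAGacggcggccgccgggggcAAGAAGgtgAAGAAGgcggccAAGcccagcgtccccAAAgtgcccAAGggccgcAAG
Over the whole coding sequence, lysine took 19.2% of 213 codons in H1FX, against 9.09 to 12.9% in the other 8 genes. H1FX, a gene of 1 exon, lies on chromosome 3 from 129314771 to 129316277 (GRCh38, GENCODE 29), on the minus strand. The antisense gene H1FX-AS1 overlaps it on the other strand. H1FX-AS1 has no entry of that name in the count table, and the strand setting of the counting is not given in the sources used here. Whether reads of H1FX-AS1 were counted under H1FX cannot be told.

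H1FX, a linker histone whose function is less studied, differed most between the groups among the genes described, and its 3 CAMKV-KD libraries all lay below its 3 Control libraries. It had 207.1, 209.8 and 202.6 CPM (read counts set to a common library total, with TMM scaling) in the CAMKV-KD libraries, against 456.0, 418.3 and 464.6 CPM in the Control libraries. The values of each group lay close together, with means of 206.5 ± 3.61 CPM in CAMKV-KD and 446.3 ± 24.6 CPM in Control (SD, n = 3 each). The level in CAMKV-KD was 46.3% of that in Control, a log2 fold change of -1.11 ± 0.048 (SE). These values rest on 4332 to 5127 counts in the CAMKV-KD libraries and 9117 to 11040 in the Control libraries. For scale, CAMKV itself had a log2 fold change of -1.73 ± 0.065 (SE). Of the 13366 genes tested, 811 had a lower log2 fold change than H1FX, and of the 2370 with a mean of at least 100 CPM, 28 did.

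The linker histone genes of the clusters, HIST1H1A to HIST1H1E and HIST1H1T, summed to 9.79 ± 1.03 CPM in CAMKV-KD and 24.1 ± 2.89 CPM in Control (SD, n = 3 each), and these sums did not overlap. The largest of them was HIST1H1C. It fell to 7.23 ± 0.462 CPM in CAMKV-KD, against 19.6 ± 1.31 CPM in Control (SD, n = 3 each; log2 fold change -1.44 ± 0.097 SE, edgeR adjusted p = 0.000466). HIST1H1A had no count in any library. The libraries were made with a kit for mRNA, and clustered histone mRNAs mostly lack a poly(A) tail, so these are levels in the libraries and not of all linker histone mRNA in the cells.

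**Figure D1:**
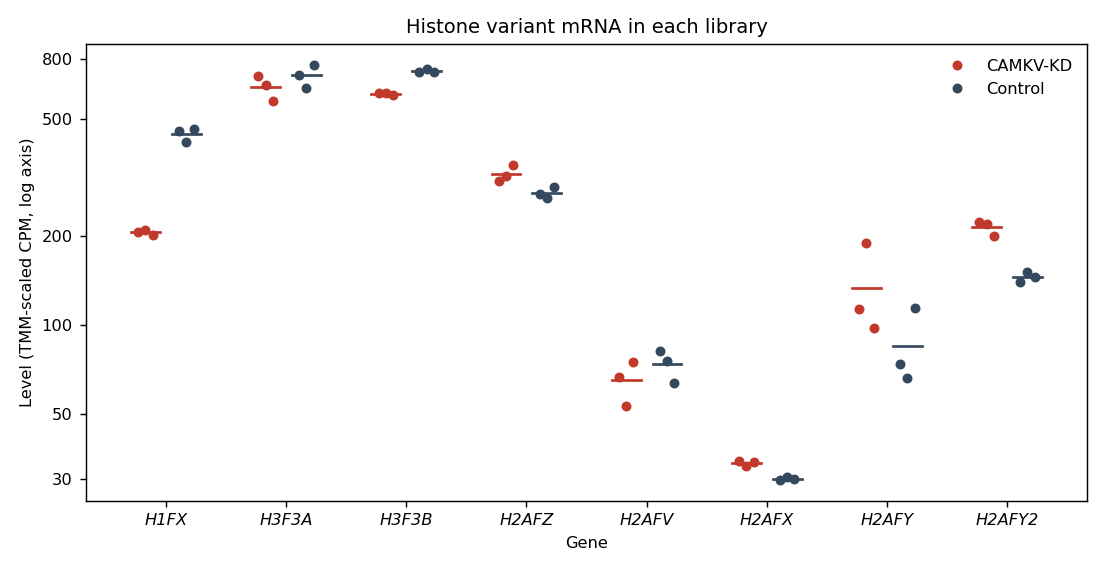
Level of the 8 tested genes in each library (TMM-scaled CPM on a log axis), with CAMKV-KD libraries in red on the left and Control libraries in dark blue on the right of each gene; points are libraries and bars are means of 3. H1FX lies far below Control in all 3 CAMKV-KD libraries, H2AFY2 lies above, and the points of H3F3A, H2AFV and H2AFY overlap.

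All 9 genes had an entry, and 8 passed the filter on low counts. Of these 8, 5 had an adjusted p below 0.05 in edgeR's quasi-likelihood test over all genes, 3 higher and 2 lower in CAMKV-KD, where 36.3% of all 13366 tested genes did. The groups did not overlap for the same 5 genes, against 52.8% of all tested genes (26.2% with CAMKV-KD higher and 26.5% with CAMKV-KD lower). Since the members were proposed with this contrast known, nothing is read from either count. The same holds for the call of any single member, and where calls are mentioned below they only describe the whole-table fit. The median log2 fold change was 0.023 over the 8 genes and 0.0045 over all tested genes. Summed over the 9 genes, the level was 2235 ± 81.5 CPM in CAMKV-KD and 2494 ± 105.3 CPM in Control (SD, n = 3 each). The sums did not overlap. H1FX had the largest difference between group means, and the differences of the other genes went both ways and largely offset each other. H3F3B, for example, averaged 610.8 CPM in CAMKV-KD and 727.9 CPM in Control, and H2AFY2 averaged 214.4 CPM in CAMKV-KD and 145.4 CPM in Control.

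**Figure D2:**
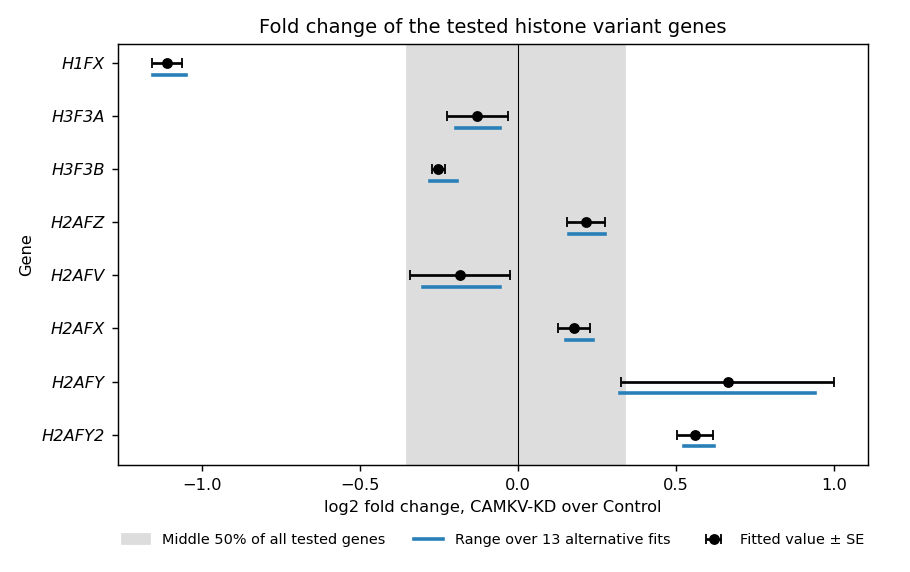
log2 fold change of CAMKV-KD over Control for the 8 tested genes (black points, with SE), its range over 13 alternative fits (blue), and the middle 50% of all tested genes (grey, from -0.35 to 0.34). H1FX, H2AFY and H2AFY2 have fitted values outside the grey band.

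H3F3A and H3F3B encode the same histone H3 variant, which chaperones place into chromatin outside S phase as well as in it. Their mRNAs are distinct, and the first 90 coding bases are printed with the 21 that differ in capitals.
H3F3A: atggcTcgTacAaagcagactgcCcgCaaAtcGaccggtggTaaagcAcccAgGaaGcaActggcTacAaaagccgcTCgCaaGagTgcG
H3F3B: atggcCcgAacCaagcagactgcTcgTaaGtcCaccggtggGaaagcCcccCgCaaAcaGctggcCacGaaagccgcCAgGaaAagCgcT
Over all 408 aligned coding bases the pair was 78.4% identical, and the longest run their transcripts share was 14 bases. H3F3B had 614.5, 611.6 and 606.2 CPM in the CAMKV-KD libraries, against 723.4, 737.9 and 722.3 CPM in the Control libraries. The groups did not overlap, with a small log2 fold change of -0.25 ± 0.020 (SE). H3F3A had 700.9, 655.3 and 576.8 CPM in the CAMKV-KD libraries, against 708.4, 640.2 and 765.6 CPM in the Control libraries. These values overlapped, and the log2 fold change of -0.13 ± 0.097 (SE) did not pass. Per kilobase of transcript, H3F3A averaged 68.5% of the pair in CAMKV-KD and 66.6% in Control, and these shares overlapped between the groups. UNK overlaps H3F3B on the other strand at 444 to 598 counts in the CAMKV-KD libraries and 428 to 1155 in the Control libraries, where H3F3B had 12631 to 17513 counts over all libraries.

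H2AFZ and H2AFV encode the 2 forms of H2A.Z, a variant found at promoters and exchanged by dedicated remodelling complexes. H2AFZ had 307.4, 321.6 and 350.0 CPM in the CAMKV-KD libraries, against 278.2, 270.4 and 294.7 CPM in the Control libraries. Every CAMKV-KD value lay above every Control value, by a log2 fold change of 0.22 ± 0.061 (SE). That call ended with upper-quartile scaling and on omitting any single library except CAMKV-KD 1. H2AFV had 66.5, 53.0 and 74.9 CPM in the CAMKV-KD libraries, against 81.5, 75.7 and 63.8 CPM in the Control libraries. The values of H2AFV overlapped between the groups. For it the log2 fold change was -0.18 ± 0.16 (SE), between -0.30 (without CAMKV-KD 3) and -0.056 (without CAMKV-KD 2) when a library was left out. Per kilobase, H2AFZ made up 78.0, 82.3 and 78.2% of the pair in the CAMKV-KD libraries, against 72.4, 73.3 and 78.0% in the Control libraries. The lowest CAMKV-KD share and the highest Control share were both 78.0% at this rounding, with the CAMKV-KD one the larger.

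**Figure D3:**
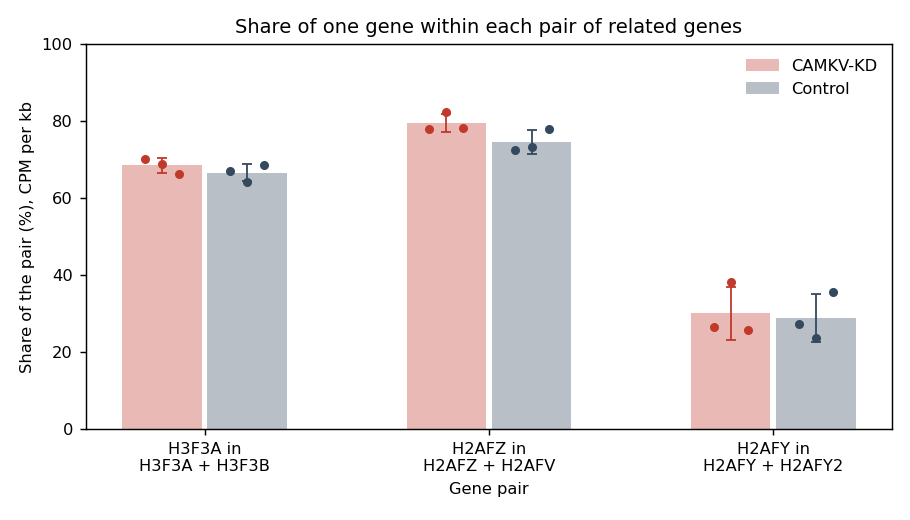
Share of the first-named gene within each pair of related genes, in CPM per kilobase of transcript, with CAMKV-KD left of Control; bars are means, error bars are SDs of 3 libraries and points are libraries. The share of H2AFZ averages 79.5% in CAMKV-KD and 74.6% in Control with no overlap, and those of H3F3A and H2AFY overlap between the groups.

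The macroH2A genes H2AFY and H2AFY2 encode H2A variants with a large additional macro domain, known from repressed chromatin such as the inactive X chromosome. H2AFY2 had 223.8, 219.6 and 199.8 CPM in the CAMKV-KD libraries, against 139.8, 151.1 and 145.4 CPM in the Control libraries. It was higher in every CAMKV-KD library, with a log2 fold change of 0.56 ± 0.058 (SE), between 0.53 and 0.62 over the alternative fits. AIFM2 overlaps H2AFY2 on the other strand and had 53 to 133 counts in the CAMKV-KD libraries and 37 to 44 in the Control libraries, against 3240 to 5539 counts of H2AFY2 over all libraries. H2AFY had 113.5, 190.5 and 97.4 CPM in the CAMKV-KD libraries, against 73.8, 65.8 and 114.0 CPM in the Control libraries. The log2 fold change of H2AFY, 0.66 ± 0.34 (SE), was the highest of the genes described but did not pass. CAMKV-KD 2 and Control 3 stood apart, and the value was 0.32 without CAMKV-KD 2 and 0.94 without Control 3. The SD of H2AFY was 37.2% of its mean in CAMKV-KD and 30.5% in Control, where that of H1FX was 1.75% in CAMKV-KD and 5.52% in Control.

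H2AFX encodes the H2A variant that is phosphorylated around DNA breaks. It had 34.5, 33.1 and 34.3 CPM in the CAMKV-KD libraries, against 29.7, 30.4 and 30.02 CPM in the Control libraries. The groups did not overlap, but the log2 fold change was small, at 0.18 ± 0.051 (SE). The call ended in 9 of 13 alternative fits, among them each of the 6 that left out a library. H2AFJ, an H2A variant described in senescent human cells, had 2 counts in CAMKV-KD 1 and none in the other 5 libraries, where 3 counts correspond to 0.121 to 0.148 CPM. It did not enter the test. H2AFX and H2AFJ share a run of 44 bases, and 83.2% of their aligned coding bases were identical.

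Levels can be compared between genes only per length. In CAMKV-KD, the CPM per kilobase of transcript was 492.6 ± 48.0 for H3F3A, 333.3 ± 22.1 for H2AFZ, 225.8 ± 1.56 for H3F3B and 137.0 ± 2.39 for H1FX. H2AFY2 at 108.3 ± 6.46, H2AFV at 86.2 ± 14.7, H2AFY at 48.0 ± 17.9 and H2AFX at 21.0 ± 0.486 followed (SD, n = 3). No neighbours among these 8 genes overlapped between the CAMKV-KD libraries. In Control, H3F3A at 538.8 ± 48.0 was followed by H1FX at 296.2 ± 16.3, H2AFZ at 287.1 ± 12.7 and H3F3B at 269.1 ± 3.21 (SD, n = 3). H2AFV at 97.9 ± 12.01, H2AFY2 at 73.5 ± 2.85, H2AFY at 30.3 ± 9.25 and H2AFX at 18.6 ± 0.212 followed (SD, n = 3). Of neighbours in the order of Control, H1FX and H2AFZ overlapped. H1FX ranked 4 of 9 in CAMKV-KD and 2 of 9 in Control, and H2AFY2 ranked 5 in CAMKV-KD and 6 in Control.

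Promoters are shown for the 5 called genes, from the RefSeq promoter table (GRCh38.p14), as the 250 bases before the annotated start. Capitals mark the CCAAT box and the TATA box (TATAAA), searched on both strands, so ATTGG is a CCAAT box on the other strand.
H1FX, chr3:129316287-129316536, minus strand: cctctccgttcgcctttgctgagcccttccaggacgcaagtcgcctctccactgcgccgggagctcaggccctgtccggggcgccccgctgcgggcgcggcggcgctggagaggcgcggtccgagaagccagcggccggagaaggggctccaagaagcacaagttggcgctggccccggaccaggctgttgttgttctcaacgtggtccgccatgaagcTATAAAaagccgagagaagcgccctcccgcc
H3F3B, chr17:75779780-75780029, minus strand: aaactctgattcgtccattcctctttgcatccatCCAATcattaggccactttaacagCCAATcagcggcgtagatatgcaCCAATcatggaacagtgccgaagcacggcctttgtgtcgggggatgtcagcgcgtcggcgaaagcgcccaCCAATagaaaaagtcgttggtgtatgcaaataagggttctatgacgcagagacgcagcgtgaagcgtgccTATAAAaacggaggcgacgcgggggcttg
H2AFZ, chr4:99950276-99950525, minus strand: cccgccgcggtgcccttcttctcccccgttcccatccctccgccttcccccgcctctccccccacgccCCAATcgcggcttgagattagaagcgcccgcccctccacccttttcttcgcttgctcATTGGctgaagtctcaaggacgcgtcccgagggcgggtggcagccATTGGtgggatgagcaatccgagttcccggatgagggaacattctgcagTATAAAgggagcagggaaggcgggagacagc
H2AFX, chr11:119095466-119095715, minus strand: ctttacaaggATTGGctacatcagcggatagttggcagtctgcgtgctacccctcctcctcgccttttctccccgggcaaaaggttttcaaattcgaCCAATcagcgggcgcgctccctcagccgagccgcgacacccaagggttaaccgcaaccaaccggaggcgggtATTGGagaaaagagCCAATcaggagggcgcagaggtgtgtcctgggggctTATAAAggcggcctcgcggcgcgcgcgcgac
H2AFY2, chr10:70052596-70052845, plus strand: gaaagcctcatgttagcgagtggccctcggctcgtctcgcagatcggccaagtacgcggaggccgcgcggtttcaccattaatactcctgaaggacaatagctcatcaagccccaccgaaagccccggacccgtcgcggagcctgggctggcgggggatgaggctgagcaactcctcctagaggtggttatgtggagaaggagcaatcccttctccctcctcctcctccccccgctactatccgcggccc
TATAAA began 31 bases before the start in H1FX, H2AFZ and H2AFX and 29 bases before it in H3F3B, and it was found in 4 of the 9 genes, against 10.7% of 35116 promoter windows of that length. The 4 genes include 2 that were lower and 2 that were higher in CAMKV-KD. CCAAT was found in 7 of the 9 members, against 32.0% of all windows; H1FX and H2AFY2 had none. Some members have several windows, and 1 match in any of them was counted. The motif GGGCGG (GC box) was found in 4 members, against 42.6% of windows, and AAACACA (H1 box) in H3F3A alone, against 4.82%. CACGTG (E-box), TGACGTCA (cAMP response element) and the E2F-type motifs TTTGGCGC and TTTCCCGC were found in none of the 9.

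The genes that handle histones moved in both directions. Like the members, the gene lists were chosen with earlier results of these data known. Their calls and p-values therefore only describe the whole-table fit. Of 16 chaperone genes of H3 and its variants, 6 rose and 2 fell (median log2 fold change 0.26), where 17.3% of all tested genes rose and 19.0% fell. CHAF1A, a subunit of the CAF-1 complex that deposits H3 at replication forks, rose to 140.8 ± 5.64 CPM in CAMKV-KD, against 89.0 ± 2.39 CPM in Control (SD, n = 3 each; edgeR adjusted p = 0.000475). UBN1, a partner of the H3F3A and H3F3B chaperone HIRA, rose by 0.38 on the log2 scale (edgeR adjusted p = 0.00212). CABIN1, of the same HIRA complex, fell by 0.56, and MIS18A, which prepares centromeres for their H3 variant, fell by 0.22. The count of members that fell was 1 without Control 1 or CAMKV-KD 2, 0 without Control 3 or CAMKV-KD 3, and 1 under scaling by library totals. The call of CABIN1 ended without Control 3, CAMKV-KD 2 or CAMKV-KD 3, and that of MIS18A ended in 6 of 13 alternative fits, among them those without any of these or Control 1.

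Of 18 genes of the complexes that exchange H2A.Z, 2 rose and 3 fell (median 0.090). The share called was 27.8%, against 36.3% of all tested genes. DMAP1, a subunit of the SRCAP and TIP60 complexes, rose to 67.6 ± 2.89 CPM in CAMKV-KD, against 38.7 ± 1.97 CPM in Control (SD, n = 3 each; edgeR adjusted p = 0.000632), and INO80, a remodelling ATPase, rose by 0.31 on the log2 scale. ACTR6 and the ATPase gene RUVBL2 fell by 0.29 and 0.40. The count of members that rose was 4 without Control 1 and 4 under scaling by library totals.

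Of 17 genes of the kinases, readers and erasers of phosphorylated H2AFX protein, 3 rose and 4 fell (median 0.072). That is 41.2% called, near the 36.3% of all tested genes. TP53BP1, a reader at DNA breaks, rose by 0.43 (edgeR adjusted p = 0.00061), and BAZ1B, the WSTF kinase of H2AFX, rose by 0.39. The kinase genes PRKDC and ATM fell by 0.15 and 0.22. The count of members that rose was 5 without Control 3 and 6 under scaling by library totals.

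Of 15 genes of histone pre-mRNA processing, 5 rose and 1 fell (median 0.30). Calls made up 40.0% of the list, near the 36.3% of all tested genes. ERI1, an exonuclease of the histone mRNA end, rose by 0.52 and CSTF2T by 0.38. LSM11, of the U7 particle that directs cleavage of clustered histone mRNAs, fell to 59.6 ± 0.623 CPM in CAMKV-KD, against 98.2 ± 1.40 CPM in Control (SD, n = 3 each; edgeR adjusted p = 0.000186). It was the single member that fell, and 2 fell without CAMKV-KD 3.

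Of 71 clustered histone genes in the table, 42 were tested, of which 5 rose and 7 fell (median -0.060). Among those tested 28.6% were called, against 36.3% of all tested genes. Besides HIST1H1C, HIST1H2BD fell to 13.2 ± 0.316 CPM in CAMKV-KD, against 25.9 ± 1.07 CPM in Control (SD, n = 3 each). Fewer of them were called when a library was left out, with 2 or 3 that rose in each such fit and 4 that fell without CAMKV-KD 1 or CAMKV-KD 3. Many of these genes are near-identical copies whose reads could be split between entries, and their counts were low. Of 11 further histone variant genes, 3 were tested. CENPA, the centromeric H3 variant, fell by 0.55 (edgeR adjusted p = 0.0161), a call that ended without Control 3.

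Of 25 tested genes of nucleosome assembly, high-mobility-group proteins and linker histone partners, 8 rose and 7 fell (median 0.062). The share called was 60.0%, where it was 36.3% over all tested genes. CBX3, a heterochromatin protein, and SUPT6H, a histone chaperone of transcription, rose by 0.24 and 0.46. HMGN4, a nucleosome-binding protein, fell by 0.68. PTMA (prothymosin alpha), which binds linker histones, fell to 2172 ± 34.9 CPM in CAMKV-KD, against 2697 ± 72.3 CPM in Control (SD, n = 3 each; edgeR adjusted p = 0.000751). Of 20 genes of cell cycle exit, 3 rose and 8 fell (median -0.24), which is 55.0% called. The antiproliferative genes BTG2 and TOB1 fell by 0.59 and 0.47, while RB1, the retinoblastoma gene, and LIN54 rose by 0.52 and 0.32. In this list 5 members fell in each fit that left out a library other than CAMKV-KD 3, and 1 rose without CAMKV-KD 3, while 5 rose under scaling by library totals. The call of LIN54 ended in 3 of 13 alternative fits, among them those without Control 3 or CAMKV-KD 3.

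**Figure D4:**
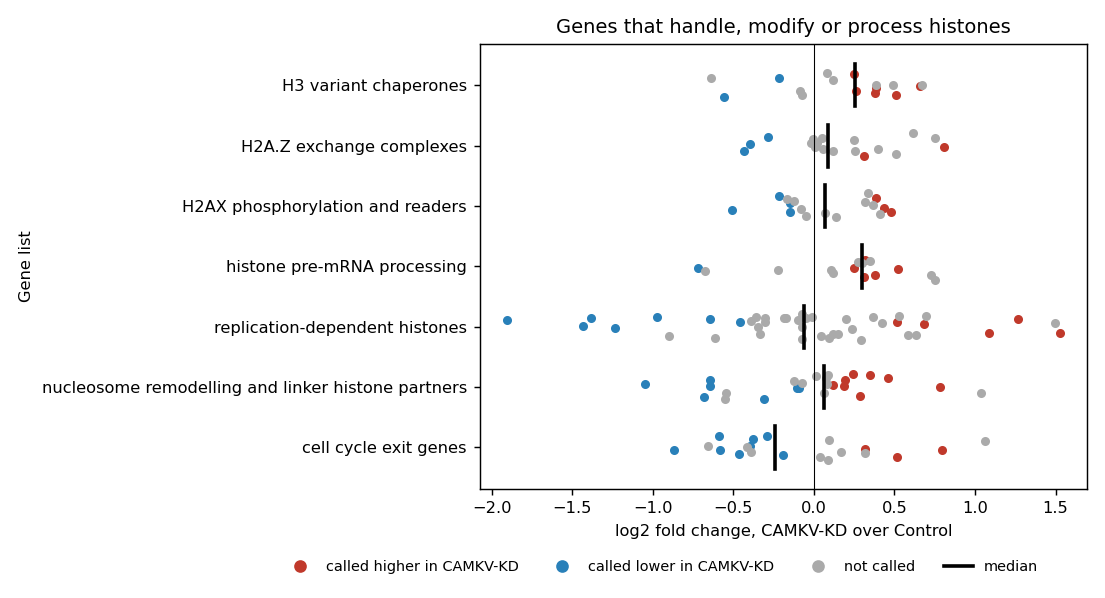
log2 fold change of CAMKV-KD over Control for the tested members of 7 gene lists; each point is a gene, coloured by its call (edgeR adjusted p below 0.05), and the black bar is the median of the list. The medians run from -0.24 for genes of cell cycle exit to 0.30 for histone pre-mRNA processing, and calls in both directions occur in each list.

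Total counts were 20238281 to 24274441 in the CAMKV-KD libraries and 22364742 to 24701564 in the Control libraries. CAMKV, the targeted gene, had 24.7 ± 1.25 CPM in CAMKV-KD and 81.9 ± 4.04 CPM in Control (SD, n = 3 each). Of 13 markers of neuroblastoma identity, 11 had a mean of at least 10 CPM. The list moved in both directions, with 1 that rose, 4 that fell and 8 not called. Over all tested genes 17.3% rose and 19.0% fell, shares to set beside each count of markers given here. PHOX2A, a transcription factor of noradrenergic neurons and 1 of the 4, fell to 120.3 ± 3.54 CPM in CAMKV-KD, against 190.0 ± 6.88 CPM in Control (SD, n = 3 each). The sum of the 13, which includes those not called, was 2329 to 2560 CPM in CAMKV-KD and 2614 to 3439 CPM in Control. No change of identity is read from PHOX2A or from this sum. Markers of blood and endothelium (1 of 3 tested higher), of Schwann cells and glia (1 of 3 higher) and of epithelium (1 of 4 higher) were mostly near 0, and SOX10, CD3E, HBB, KRT18 and KRT5 had no count. Summed, the 12 blood and endothelial markers had 18.8 to 19.8 CPM in CAMKV-KD and 5.49 to 7.57 CPM in Control, mostly from KDR. The 9 Schwann and glial markers summed to 59.5 to 60.6 CPM in CAMKV-KD and 51.0 to 56.9 CPM in Control, mostly from PMP22, and the 8 epithelial markers to 5.41 to 9.45 CPM in CAMKV-KD and 3.63 to 5.05 CPM in Control. Of 10 fibroblast and stromal markers, 6 were higher and 1 lower in CAMKV-KD, and their sum was 998.3 to 1067 CPM in CAMKV-KD and 729.0 to 911.8 CPM in Control. ACTA2 and COL3A1 rose by 1.89 and 0.83 on the log2 scale, and PDGFRB fell by 0.56. The part of these markers in the histone results was not tested.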

How the data were processed

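RNA-seq libraries of NGP cells were deposited as 1 table of whole-number counts per gene, not normalized. Per the submitters' processing notes, the authors used HISAT2 2.1.0, StringTie 1.3.5 and FastQC 0.11.2 with GRCh38.p13, and DESeq2 1.28.1 is named in the series' design text for their own test. The strand setting and the step from StringTie to whole counts are not stated. Where a symbol had several entries, the entry with most counts was used for it (63 others were not). Counts were analysed with edgeR 4.0.16 in R 4.3.3 after filterByExpr and TMM scaling, with the quasi-likelihood F-test on group alone and Benjamini-Hochberg adjustment over 13366 genes; DESeq2 1.42.0 and limma-voom (limma 3.58.1) were alternatives. Levels are TMM-scaled CPM, and each SE was obtained from the fold change and its F statistic. CPM per kilobase uses the principal GENCODE 29 transcript. The scripts were tested on simulated data.

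The members and gene lists were chosen with earlier results of these data known. Named are CAMKV, the members and, in each list, the 2 called genes with the smallest adjusted p in each direction with a mean of at least 10 CPM; 1 member, the genes closest to it in profile and some marker genes are not reported here. SOX10, CD3E, HBB, KRT18 and KRT5 were named for having no count, and H1FX-AS1, UNK and AIFM2 for overlapping a member. HIST3H2A and HIST1H2BH fall outside the naming rule and were picked after the values were seen. No molecular identifiers are named, so limits from counts cover counting error only.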

Additional observations from a re-analysis of the deposited data

How the results depend on the processing

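The log2 fold changes of the 8 tested genes described kept their direction in 13 alternative fits, and that of H1FX ranged from -1.16 to -1.05. H2AFZ was no longer called in 6 of the 13 fits and H2AFX in 9. Scaling by library totals, which moved the median of all genes to 0.064, gave 4 H2A.Z exchange genes that rose, 6 genes of H2AFX phosphorylation that rose, 1 H3 chaperone that fell and 5 cell cycle exit genes that rose. DESeq2 gave 3 clustered histone genes that rose, as did the filter on a summed count of at least 10. Same-numbered libraries showed no shared deviation from their group means (correlations of -0.0074, -0.058 and -0.029). The labels do not say whether the replicate numbers mark a batch. These correlations cannot decide it, since each group of 3 was centred on its own mean. With the replicate block 1526 genes rose over the whole table, and 1 H3 chaperone fell, 1 cell cycle exit gene rose and 4 fell, and 2 clustered histone genes rose and 4 fell. The block ended the calls of MIS18A, LIN54 and PMP22 (edgeR adjusted p = 0.0599, 0.0548 and 0.0748). It also ended the call of H2AFX, a member, for which no p-value is given.

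Leaving out 1 library gave 1739 to 1925 genes that rose and 2044 to 2119 that fell over the whole table. It gave 0 to 2 H3 chaperones that fell, 2 to 4 H2A.Z exchange genes that rose, 3 to 5 genes of H2AFX phosphorylation that rose, 1 to 2 processing genes that fell, and 0 to 1 further variants that fell. Among clustered histone genes 2 to 3 rose and 4 to 6 fell, and among cell cycle exit genes 1 to 4 rose and 5 to 6 fell. H2AFJ and most clustered histone genes had low counts, which limits the precision of their values.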

Other observations

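The clustered histone genes are described here by class, a grouping chosen after their values were seen, and no difference between classes was tested. The 17 H2A entries summed to 38.6 ± 0.994 CPM in CAMKV-KD and 61.6 ± 7.77 CPM in Control, and the 18 H2B entries to 56.7 ± 0.514 CPM in CAMKV-KD and 77.0 ± 2.18 CPM in Control (SD, n = 3 each). The 15 H3 entries summed to 11.8 ± 0.766 CPM in CAMKV-KD and 8.11 ± 0.590 CPM in Control, and the 15 H4 entries to 20.9 ± 2.20 CPM in CAMKV-KD and 17.9 ± 1.64 CPM in Control (SD, n = 3 each). The sums of all 4 classes did not overlap between the groups, and neither did 52.8% of all tested genes. For H4 the lowest CAMKV-KD sum, 19.3 CPM, lay close to the highest Control sum, 18.9 CPM. Of the tested genes, 0 were called higher and 2 lower of 9 for H2A, and 2 higher and 3 lower of 14 for H2B. For H3 the calls were 1 higher and 0 lower of 6, and for H4 2 higher and 0 lower of 9. The linker histone class described above had 0 higher and 2 lower of 4. Over the whole table, 17.3% of tested genes were higher and 19.0% lower, and nothing is read from counts this small. HIST3H2A fell to 12.3 CPM in CAMKV-KD, against 32.1 CPM in Control, and HIST1H2BH rose to 9.70 CPM in CAMKV-KD, against 3.36 CPM in Control (means of 3 libraries), so HIST3H2A alone held most of the gap between the H2A sums. The sums are counts in these libraries and not levels of all histone mRNA in the cells.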
